A study of Mus musculus with 11 samples.

Results

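The 10 chemokine genes Ccl2, Ccl7, Ccl11, Ccl5, Cxcl1, Cxcl5, Cxcl10, Cxcl12, Cxcl16 and Cx3cl1 were followed by bulk RNA-seq in primary fibroblasts of the neonatal mouse lung. They were taken by gene symbol from a table of 32868 named genes. All 10 were found, and 7 of them had enough counts to enter the test, among 9932 genes. Fibroblasts had been prepared from PAD2KO and from wild-type (WT) mice and sorted by flow cytometry. PAD2KO mice lack peptidylarginine deiminase 2, the enzyme encoded by Padi2 that turns arginine in proteins into citrulline. The 11 libraries form 4 groups. In batch 2 they are PAD2KO 6 and 7, set against WT 5, 6 and 7. In batch 1 they are PAD2KO 1, 2 and 3, set against WT 1, 3 and 4. The series title speaks of TNF, but no treatment is named for any library, so whether some of the cells were given TNF is not known here. The knockout allele, the strain, the exact age, the sort gate and whether each library is a separate mouse or culture are not given in the sources used here either. The p-values below therefore measure the spread between libraries, which may be technical.

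Chemokines are small secreted or membrane-bound proteins that draw leukocytes through G protein-coupled receptors and are held on heparan sulfate at cell surfaces. In the lung, fibroblasts release them early in inflammation, when TNF and interleukin-1 act through the transcription factor NF-kB and interferons act through STAT proteins. Ccl2 and Ccl7 recruit monocytes, Ccl11 eosinophils, Ccl5 T cells and monocytes, Cxcl1 and Cxcl5 neutrophils, and Cxcl10 activated T cells. Cxcl12 retains stem and progenitor cells and lymphocytes and is made constantly by many stromal cells. Cxcl16 and Cx3cl1 are made as membrane proteins that proteases can release.

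The libraries held 962633 to 1421243 counts in named genes, and 3 counts, the most that a gene with no count may hide, were worth 2.11 to 3.22 CPM. CPM here are counts divided by the scaled library size. Padi2 had 0 to 4 counts in every library, WT libraries included, so its mRNA could not check the genotype labels. The 9 fibroblast markers had counts in all 11 libraries and summed to 10203 to 22544 CPM, although Lum, a small proteoglycan of the matrix, was at 1.58 to 14.1 CPM. Sftpc and Scgb1a1, markers of lung epithelial cells, were at 0 in every library. The 7 epithelial markers still summed to 23.0 to 41.9 CPM in PAD2KO and 22.5 to 35.7 CPM in WT libraries of batch 2, against 12.6 to 26.5 CPM in PAD2KO and 17.4 to 23.3 CPM in WT libraries of batch 1. Most of this was Krt18, a keratin, at 10.6 to 38.6 CPM, which was higher in batch 2 in PAD2KO (log2 fold change 1.01, edgeR adjusted p = 0.0358) and in WT (0.83, adjusted p = 0.0468). The 6 endothelial markers summed to 1.59 to 15.0 CPM. The 12 leukocyte and macrophage markers summed to 77.1 to 124 CPM in PAD2KO and 121 to 333 CPM in WT libraries of batch 2, against 34.5 to 69.0 CPM in PAD2KO and 28.2 to 70.2 CPM in WT libraries of batch 1. WT 7 was the highest, with 164 CPM of Lyz2. The leukocyte sums thus moved in the same direction between batches as several chemokines below, while the epithelial sums overlapped between batches. Cd14 of the leukocyte list had 30.2 and 43.5 CPM in PAD2KO and 58.0 to 79.7 CPM in WT of batch 2. In batch 1 Cd14 had 4.73 to 12.8 CPM. Other genes of these lists did not move so: Lyz2 overlapped between batches, and Ptprc was at 0 to 2.97 CPM and Krt8 at 0 to 5.63 CPM in every library. The part of these markers in the chemokine results was not tested. In such bulk samples, fewer cells of a type and less RNA per cell cannot be told apart.

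Ccl2, Ccl7 and Ccl11 lie next to each other on chromosome 11, with Ccl5 and Cxcl16 elsewhere on it. Cxcl5, Cxcl1 and Cxcl10 are on chromosome 5, Cxcl12 on 6 and Cx3cl1 on 8. RefSeq promoters of the mouse build GRCm38.p6 were at hand for 4 of the 10 genes, covering 250 bases before to 50 bases after the start of the gene. The 250 bases before the start are shown for 3 of them, since Cxcl1 and Cxcl12 moved in opposite directions between the batches and Cxcl10 is a known target of both NF-kB and interferon. Cxcl1 is at chr5:90890995-90891244 on the plus strand, Cxcl10 at chr5:92348890-92349139 on the minus strand and Cxcl12 at chr6:117168285-117168534 on the plus strand. Each is written 5′ to 3′ on the strand of its gene, and capitals mark matches to the NF-kB consensus (runs that begin with GGG) and to the interferon-response core GAAANNGAA.
Cxcl1: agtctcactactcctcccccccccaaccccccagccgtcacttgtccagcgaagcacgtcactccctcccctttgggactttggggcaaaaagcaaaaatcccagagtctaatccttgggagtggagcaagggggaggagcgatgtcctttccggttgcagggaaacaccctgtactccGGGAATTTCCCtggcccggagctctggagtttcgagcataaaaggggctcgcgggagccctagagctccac
Cxcl10: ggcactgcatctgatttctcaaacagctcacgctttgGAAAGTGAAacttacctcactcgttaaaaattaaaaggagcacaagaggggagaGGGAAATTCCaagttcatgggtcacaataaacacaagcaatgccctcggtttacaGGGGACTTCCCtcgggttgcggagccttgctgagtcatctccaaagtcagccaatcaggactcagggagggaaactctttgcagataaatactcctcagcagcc
Cxcl12: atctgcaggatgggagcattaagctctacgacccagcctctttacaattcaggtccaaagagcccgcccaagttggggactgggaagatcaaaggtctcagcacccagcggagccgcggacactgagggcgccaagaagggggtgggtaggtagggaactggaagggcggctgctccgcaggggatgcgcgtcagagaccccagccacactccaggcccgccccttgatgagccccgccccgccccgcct
The capitals in Cxcl1 hold 2 overlapping NF-kB matches, 1 on each strand, that span bases -71 to -61 from the start. Cxcl10 had 3 such matches, of which the 2 nearer to the start overlap between bases -104 and -94, and 1 interferon-response core at bases -213 to -205. In Cxcl12 neither motif was found, nor was TATAAA. The Cx3cl1 promoter held TATAAA at bases -6 to -1 and neither of the other motifs. All motifs were searched on both strands. Of the 32851 promoters of the same length in the table, 8.46% held the NF-kB consensus, 8.56% the interferon-response core and 13.6% TATAAA. These matches describe letters, not bound sites.

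The make-up of the chemokine mRNA was compared on the deposited TPM scale, which allows for gene length. Ccl2 held the largest share in every batch 2 library and Cxcl12 in every batch 1 library. In batch 2 the 10 genes summed to 4415 TPM in PAD2KO 6 and 1100 TPM in PAD2KO 7, and to between 4000 and 4964 TPM in the WT libraries. In batch 1 the sums were 587 to 720 TPM in PAD2KO and 513 to 653 TPM in WT libraries. PAD2KO 7 lay between the batches, PAD2KO 6 lay among the WT libraries of batch 2, and the genotypes overlapped in batch 1. Ccl2 made up 68.5% of the sum in PAD2KO 6, 53.7% in PAD2KO 7 and 59.6% to 62.0% in WT of batch 2, against 22.0% to 26.8% in PAD2KO and 19.5% to 31.3% in WT of batch 1. The share of Cxcl12 was 2.70% in PAD2KO 6, 15.7% in PAD2KO 7 and 2.54% to 3.20% in WT of batch 2, against 37.9% to 47.2% in PAD2KO and 41.5% to 56.8% in WT of batch 1. By mean TPM the order was Ccl2, Ccl7, Cxcl12 in PAD2KO of batch 2 and Ccl2, Ccl7, Cxcl1 in WT of batch 2. It was Cxcl12, Ccl2, Ccl7 in both genotypes of batch 1. Some neighbours in this order were closer than their spread: in WT of batch 2, Cxcl1 averaged 140 ± 36.5 TPM and Cxcl12 135 ± 16.1 TPM (SD, n = 3), and in PAD2KO of batch 1 Ccl2 averaged 165 ± 32.2 TPM and Ccl7 139.5 ± 14.3 TPM (SD, n = 3). The third place in batch 2 also did not hold in each library. Cxcl1 was above Cxcl12 in PAD2KO 6 (149.6 and 119.1 TPM) and in WT 6 (174.5 and 125.9 TPM). It was below Cxcl12 in PAD2KO 7 (13.0 and 172.6 TPM), WT 5 (101.8 and 125.7 TPM) and WT 7 (143.5 and 153.7 TPM). The ratio of Ccl2 to Ccl7 TPM was 3.03 in PAD2KO 6 and 2.04 in PAD2KO 7, against 2.00 to 2.21 in WT of batch 2, and 1.04 to 1.26 in PAD2KO against 1.41 to 2.15 in WT of batch 1.

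**Figure D1:**
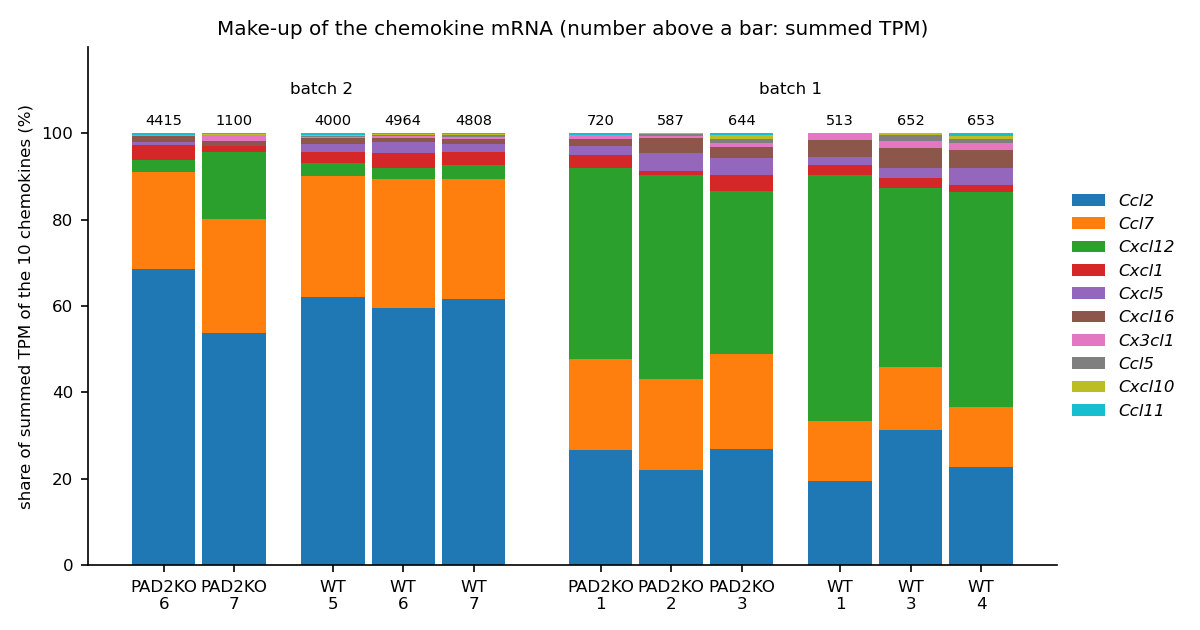
Bars show each library and colours the share of each gene in the summed TPM of the 10 chemokines (vertical axis, %), with the summed TPM above each bar. Ccl2 and Ccl7 fill most of each batch 2 bar, Cxcl12 takes the largest share of each batch 1 bar, and PAD2KO 7 has 1100 TPM where PAD2KO 6 has 4415 TPM.

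Ccl2 and Ccl7, the ligands of CCR2 that draw monocytes, were far higher in batch 2 than in batch 1. Ccl2 had 1509 CPM in PAD2KO 6 and 302 CPM in PAD2KO 7, against 98.7, 62.6 and 83.9 CPM in PAD2KO 1, 2 and 3. In WT it had 1281, 1523 and 1562 CPM in batch 2, against 48.9, 98.6 and 70.0 CPM in batch 1. Every batch 2 library lay above every batch 1 library, but PAD2KO 7 was much nearer to batch 1 than the other 4. Ccl2 was 11.1-fold higher in batch 2 in PAD2KO (log2 fold change 3.47 ± 0.64 SE, edgeR quasi-likelihood test with Benjamini-Hochberg adjusted p = 0.00849) and 19.9-fold higher in WT (4.32 ± 0.62 SE, adjusted p = 0.00194). Between genotypes, Ccl2 averaged 905 ± 854 CPM in PAD2KO (SD, n = 2) and 1455 ± 152 CPM in WT (SD, n = 3) of batch 2. In batch 1 it averaged 81.8 ± 18.1 CPM in PAD2KO and 72.5 ± 24.9 CPM in WT (SD, n = 3 each). Neither difference passed the test: the log2 fold change of PAD2KO over WT was -0.69 ± 0.58 SE (edgeR adjusted p = 0.688) in batch 2 and 0.16 ± 0.66 SE (adjusted p = 0.996) in batch 1.

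Ccl7 had 484 CPM in PAD2KO 6 and 142 CPM in PAD2KO 7, against 559.7, 740.3 and 687 CPM in WT of batch 2. In batch 1 the gene had 73.9, 57.0 and 63.8 CPM in PAD2KO, against 33.1, 43.9 and 41.9 CPM in WT. The genotypes did not overlap in either batch, with PAD2KO below WT in batch 2 and above it in batch 1. Neither difference passed the threshold: the log2 fold change was -1.08 ± 0.43 SE in batch 2 (edgeR adjusted p = 0.316) and 0.70 ± 0.53 SE in batch 1 (adjusted p = 0.956). The difference between these 2 values was -1.79 ± 0.68 SE on the log2 scale (edgeR adjusted p = 0.361). With batch 1 fitted alone, the batch 1 value was 0.71 (edgeR adjusted p = 0.114), which also did not pass. In the main fit the spread of a gene is shared by all its comparisons, so the gap between PAD2KO 6 and 7 enters batch 1 too. Between batches, Ccl7 was 4.82-fold higher in batch 2 in PAD2KO (2.27 ± 0.47 SE, adjusted p = 0.0151) and 16.6-fold higher in WT (4.06 ± 0.47 SE, adjusted p = 0.000552). Without PAD2KO 3 the first of these had an adjusted p of 0.0512, at a log2 fold change of 2.26.

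Cxcl1 and Cxcl5, the neutrophil-attracting ligands of CXCR2, were higher in batch 2 in WT. Cxcl1 had 101 CPM in PAD2KO 6 and 11.1 CPM in PAD2KO 7, against 67.2, 114 and 97.7 CPM in WT of batch 2. The batch 1 levels were 15.3, 3.52 and 14.1 CPM in PAD2KO, against 7.89, 11.5 and 6.44 CPM in WT. PAD2KO 6 lay among the WT libraries of its batch, while PAD2KO 7 lay among the PAD2KO libraries of batch 1. In WT the gene was 10.5-fold higher in batch 2 (log2 fold change 3.40 ± 0.83 SE, edgeR adjusted p = 0.0232). The corresponding value in PAD2KO was 2.36 ± 0.91 SE (adjusted p = 0.126). The log2 fold change of PAD2KO over WT was -0.73 ± 0.70 SE (adjusted p = 0.725) in batch 2 and 0.30 ± 1.15 SE (adjusted p = 0.996) in batch 1.

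Among the 7 tested chemokines, Cxcl5 was the lowest in PAD2KO relative to WT of batch 2. It had 43.5 CPM in PAD2KO 6 and 1.59 CPM (2 counts) in PAD2KO 7, against 88.6, 150.1 and 116 CPM in WT of batch 2. Batch 1 gave 17.7, 27.4 and 27.5 CPM in PAD2KO, against 10.3, 16.6 and 29.8 CPM in WT. Both PAD2KO libraries of batch 2 lay below all WT libraries of that batch, and PAD2KO 7 lay below all other libraries. The log2 fold change was -2.40 ± 0.73 SE in batch 2 (edgeR adjusted p = 0.172) and 0.37 ± 0.79 SE in batch 1 (adjusted p = 0.994), so neither passed. Their difference was -2.77 ± 1.09 SE (edgeR adjusted p = 0.383). Batch 2 was 6.27-fold above batch 1 in WT (2.65 ± 0.65 SE, adjusted p = 0.0234), whereas the log2 fold change in PAD2KO was -0.13 ± 0.87 SE (adjusted p = 0.947). The WT call of Cxcl5 was lost without WT 1, 3, 6 or 7 (edgeR adjusted p = 0.0515 to 0.0819). That of Cxcl1 was lost without WT 1, 3, 4, 6 or 7 (adjusted p = 0.0542 to 0.0764). The log2 fold changes were then still at 2.36 to 2.66 for Cxcl5 and 3.21 to 3.67 for Cxcl1. Both WT calls held when any single PAD2KO library was left out. The spread that the fit estimates for a gene is shared by all its comparisons, so PAD2KO libraries enter these WT tests.

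**Figure D2:**
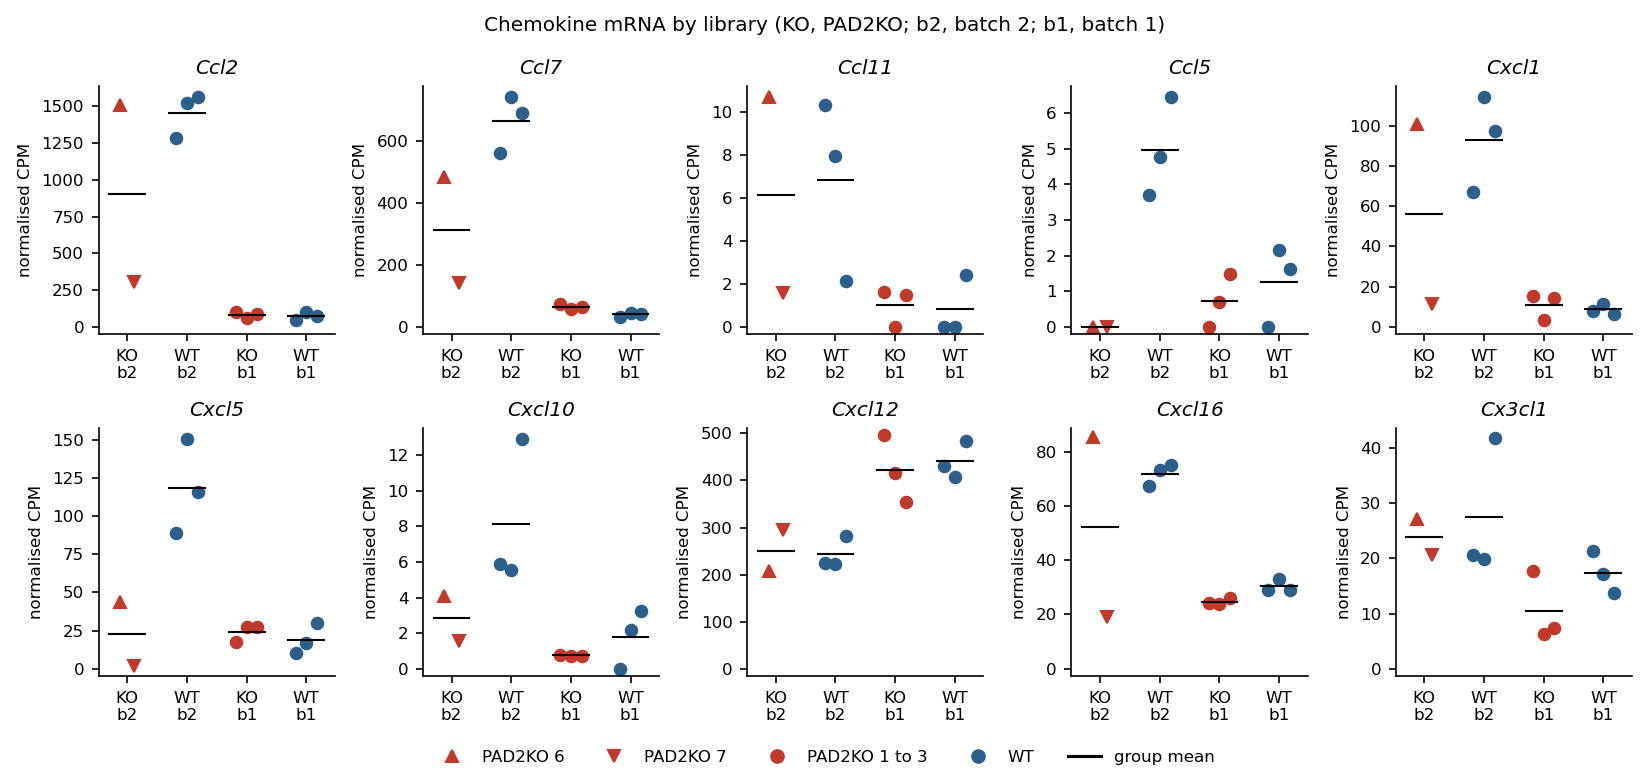
Each panel shows 1 chemokine in normalised CPM (vertical axis, linear), each point a library and each line the mean of a group. Ccl2, Ccl7, Cxcl1 and Cxcl16 of PAD2KO 6 sit near the WT libraries of batch 2, PAD2KO 7 sits well below them, and Cxcl12 is lower in batch 2 than in batch 1.

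Cxcl12, the CXCR4 ligand made constantly by stromal cells, went the other way. It had 207 CPM in PAD2KO 6 and 294 CPM in PAD2KO 7, against 497, 415 and 353 CPM in PAD2KO 1, 2 and 3. In WT it had 225, 223 and 282 CPM in batch 2, against 432, 407 and 485 CPM in batch 1. All 5 libraries of batch 2 lay below all 6 of batch 1. Cxcl12 fell to 0.595 of the batch 1 level in PAD2KO (log2 fold change -0.75 ± 0.16 SE, edgeR adjusted p = 0.00160) and to 0.550 of it in WT (-0.86 ± 0.14 SE, adjusted p = 6.53e-05). Without PAD2KO 6 the PAD2KO value was -0.52 (adjusted p = 0.0623). Between genotypes the level averaged 250.4 ± 61.6 CPM in PAD2KO (SD, n = 2) and 244 ± 33.6 CPM in WT (SD, n = 3) of batch 2, with a log2 fold change of 0.05 ± 0.16 SE. In batch 1 it averaged 422 ± 72.0 CPM in PAD2KO and 441 ± 39.8 CPM in WT (SD, n = 3 each), with a log2 fold change of -0.06 ± 0.14 SE. Neither passed (edgeR adjusted p = 0.941 in batch 2 and 0.994 in batch 1), and both were the smallest in size among the 7 tested chemokines of that batch.

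Cxcl16, the membrane-bound ligand of CXCR6, had 85.4 CPM in PAD2KO 6 and 19.1 CPM in PAD2KO 7, against 67.2, 73.1 and 75.2 CPM in WT of batch 2. In batch 1 it had 24.1, 23.9 and 26.0 CPM in PAD2KO, against 29.2, 33.1 and 29.0 CPM in WT. PAD2KO 6 was the highest of all libraries and PAD2KO 7 the lowest, and in batch 1 the PAD2KO libraries lay just below WT without overlap. No comparison passed the threshold: PAD2KO over WT gave a log2 fold change of -0.46 ± 0.42 SE (edgeR adjusted p = 0.702) in batch 2 and -0.30 ± 0.45 SE (adjusted p = 0.988) in batch 1. Batch 2 over batch 1 gave 1.07 ± 0.47 SE (adjusted p = 0.155) in PAD2KO and 1.23 ± 0.40 SE (adjusted p = 0.0529) in WT, where the batches did not overlap. DESeq2 called both batch values (adjusted p = 0.0346 in PAD2KO and 0.00203 in WT). The WT value passed with edgeR too once PAD2KO 6 or PAD2KO 7 was left out (adjusted p = 5.60e-06 and 4.21e-06), and the spread that the fit estimates for a gene is shared by all its comparisons.

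Cx3cl1, the membrane-bound ligand of CX3CR1, had 27.1 CPM in PAD2KO 6 and 20.7 CPM in PAD2KO 7, against 17.7, 6.33 and 7.42 CPM in PAD2KO 1, 2 and 3. In WT it had 20.7, 19.9 and 41.9 CPM in batch 2, against 21.3, 17.3 and 13.7 CPM in batch 1. The batches did not overlap in PAD2KO but did in WT. Batch 2 was 2.31-fold above batch 1 in PAD2KO (log2 fold change 1.21 ± 0.40 SE, edgeR adjusted p = 0.0361), and the WT value was 0.60 ± 0.33 SE (adjusted p = 0.212). These 2 values were not shown to differ, with an adjusted p of 0.728 for their difference of 0.60 ± 0.52 SE. The PAD2KO call was lost with DESeq2 (adjusted p = 0.0620), with gene length offsets (adjusted p = 0.0812) and without PAD2KO 2, 3, 6 or 7 or WT 3 (adjusted p = 0.0506 to 0.236). In batch 1, PAD2KO over WT was -0.76 ± 0.38 SE (adjusted p = 0.904), and in batch 2 it was -0.15 ± 0.35 SE (adjusted p = 0.904).

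Ccl5, Ccl11 and Cxcl10 had too few counts for the fit, and their counts are given instead. Ccl5, the T cell and monocyte chemokine, had 0 counts in PAD2KO 6 and PAD2KO 7, against 5, 6 and 6 counts in WT of batch 2. Batch 1 libraries had 0, 1 and 2 counts in PAD2KO, against 0, 3 and 2 counts in WT. The 3 WT libraries of batch 2 were above all others. Their mean was 4.97 CPM, 2.02-fold above the 2.46 CPM that 3 counts, the limit that 0 counts allow, were worth in PAD2KO 6. Counting error in WT and the spread between libraries are not in this value, so it is no firm bound. An exact two-sided permutation test of the mean CPM over the 200 splits within batches gave p = 0.0350 for PAD2KO against WT over both batches, with a mean difference of -2.75 CPM. This p was 1 of 3 for these genes and was not adjusted. Without the filter on low counts, edgeR called none of the genotype differences of Ccl5 (adjusted p = 0.0518 in batch 2 and 0.994 in batch 1).

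Ccl11, the eosinophil chemokine eotaxin, had 13 counts in PAD2KO 6 and 2 in PAD2KO 7, against 14, 10 and 2 counts in WT of batch 2. In the libraries of batch 1 it had 2, 0 and 2 counts in PAD2KO, against 0, 0 and 3 counts in WT. The genotypes overlapped in both batches (exact permutation p = 0.865). Cxcl10, the CXCR3 ligand and a classical interferon-response gene, had 5 counts in PAD2KO 6 and 2 in PAD2KO 7, against 8, 7 and 12 counts in WT of batch 2. In batch 1 there was 1 count in each PAD2KO library, against 0, 3 and 4 counts in WT. Both PAD2KO libraries of batch 2 lay below WT, and in batch 1 the genotypes overlapped (exact permutation p = 0.0600 over both batches, mean difference -3.16 CPM). At these counts differences of this size are near the limit of detection.

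More of the 7 tested chemokines were called between batches than between genotypes. Batch 2 against batch 1 in PAD2KO called 4 of the 7, where 18.7% of the 9932 genes were called. Of these, 3 were higher (Ccl2, Ccl7 and Cx3cl1; 9.52% of all genes were) and 1 lower (Cxcl12; 9.13% of all genes were). In WT the comparison called 5 of the 7, where 22.3% of genes were called, with 4 higher (Ccl2, Ccl7, Cxcl1 and Cxcl5; 11.7% of all genes were) and 1 lower (Cxcl12; 10.6% of all genes were). The median log2 fold change of the 7 was 1.21 in PAD2KO and 2.65 in WT, against medians of -0.02 and 0.00 over all genes tested. Groups did not overlap for 4 of the 7 in PAD2KO, where 46.0% of genes did not, and for 6 of the 7 in WT, where 36.5% did not. The batches are known only by their label, so time, handling and cell state cannot be told apart in these values.

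**Figure D3:**
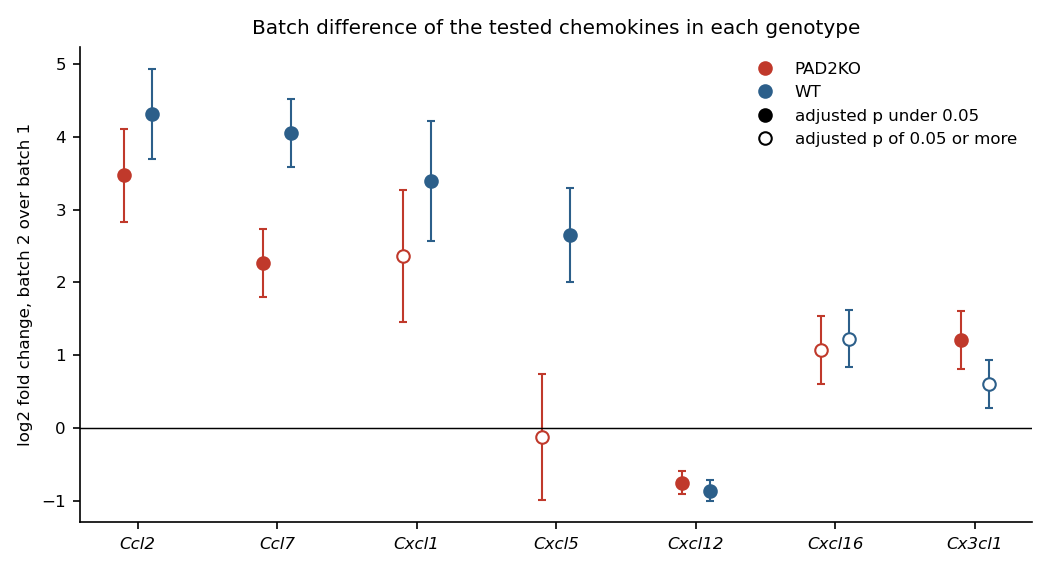
Points give the log2 fold change of batch 2 over batch 1 (vertical axis) of each tested chemokine in PAD2KO (red) and WT (blue), bars are ± 1 SE, and filled points passed an adjusted p of 0.05. Ccl2 and Ccl7 are high in both genotypes, Cxcl12 is low in both, and Cxcl5 lies near 0 in PAD2KO and at 2.65 in WT.

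PAD2KO against WT called 0 of the 7 in batch 2, where edgeR called 3.11% of genes, and 0 of the 7 in batch 1, where it called 0.131%. DESeq2 also called 0 in each batch. At an unadjusted p under 0.05 the main edgeR fit, with its shared spread, had 2 in batch 2 (Ccl7 and Cxcl5) and 0 in batch 1. Of the 9932 genes tested, 1433 were under that value in batch 2 and 545 in batch 1. The test of whether the genotype difference itself differed between batches called 0 of the 7 by edgeR and by DESeq2, where edgeR called 1.62% of genes. In this test Ccl7 and Cxcl5 were again under an unadjusted 0.05, as were 1150 of the 9932 genes. The same difference is that between the batch values in PAD2KO and in WT, so the larger batch values in WT were not shown to differ from those in PAD2KO. The median log2 fold change of the 7 was -0.69 in batch 2 and 0.16 in batch 1, against -0.01 and 0.00 over all genes tested. The genotypes did not overlap for 2 of the 7 in batch 2 (Ccl7 and Cxcl5, both lower in PAD2KO), where 31.1% of genes did not. In batch 1 this held for 2 of the 7 (Ccl7 higher and Cxcl16 lower), where 11.3% of genes did not.

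The 2 PAD2KO libraries of batch 2 differed from each other in the chemokines. Relative to the mean of the WT libraries of that batch, PAD2KO 6 was at 1.04 for Ccl2, 1.08 for Cxcl1, 1.19 for Cxcl16, 0.730 for Ccl7 and 0.368 for Cxcl5. PAD2KO 7 was at 0.207 for Ccl2, 0.119 for Cxcl1, 0.266 for Cxcl16 and 0.215 for Ccl7. For Cxcl5, the 2 counts of PAD2KO 7 gave a ratio to WT of 0.0135, with an exact interval of 0.00163 to 0.0491 (95% confidence, counting error only). Of the 7 tested chemokines, PAD2KO 6 lay below the WT range for 3 (Ccl7, Cxcl5 and Cxcl12), where 27.2% of all genes tested did, and PAD2KO 7 for 5, where 29.3% did. The 3 scarce chemokines were left out of these counts, since the shares cover tested genes only. Cxcl12 was the higher in PAD2KO 7, at 0.849 of the WT mean in PAD2KO 6 and 1.21 in PAD2KO 7.

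Fits with each of these libraries alone put numbers to the gap, with the lone library assumed to vary as the other groups do. This assumption may not hold, since Ccl7 had an SD of 241 CPM in PAD2KO and 92.8 CPM in WT of batch 2. With PAD2KO 6 alone, 0 of the 7 differed from WT of batch 2, where 0.646% of genes were called. The nearest was Cxcl5 (log2 fold change -1.44 ± 0.38 SE, edgeR adjusted p = 0.145), followed by Ccl7 (-0.45 ± 0.17 SE, adjusted p = 0.367). With PAD2KO 7 alone, 5 of the 7 were lower than in WT, where 3.68% of genes were called. They were Ccl2 (-2.27 ± 0.30 SE, adjusted p = 0.00100), Ccl7 (-2.22 ± 0.20 SE, adjusted p = 1.57e-08), Cxcl1 (-3.05 ± 0.50 SE, adjusted p = 0.00108), Cxcl16 (-1.90 ± 0.29 SE, adjusted p = 0.000102) and Cxcl5 (-6.13 ± 0.71 SE, adjusted p = 6.11e-05), which rests on 2 counts. Such a fit compares 1 library with 3 and cannot tell genotype from that library. With PAD2KO 6 alone, the batch 2 value of PAD2KO over WT less the batch 1 value was -1.16 for Ccl7 and -1.82 for Cxcl5. For the other tested chemokines it lay between -0.18 and 0.78. With PAD2KO 7 alone it was -2.43 for Ccl2, -2.92 for Ccl7, -3.35 for Cxcl1, -1.60 for Cxcl16 and -6.50 for Cxcl5. It was 0.34 for Cxcl12 and 0.40 for Cx3cl1. Batch 2 against batch 1 in PAD2KO called Ccl2, Ccl7, Cxcl1, Cxcl12 and Cxcl16 with PAD2KO 6 alone (10.7% of genes), and Ccl2, Ccl7 and, lower in batch 2, Cxcl5 with PAD2KO 7 alone (11.9% of genes).

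**Figure D4:**
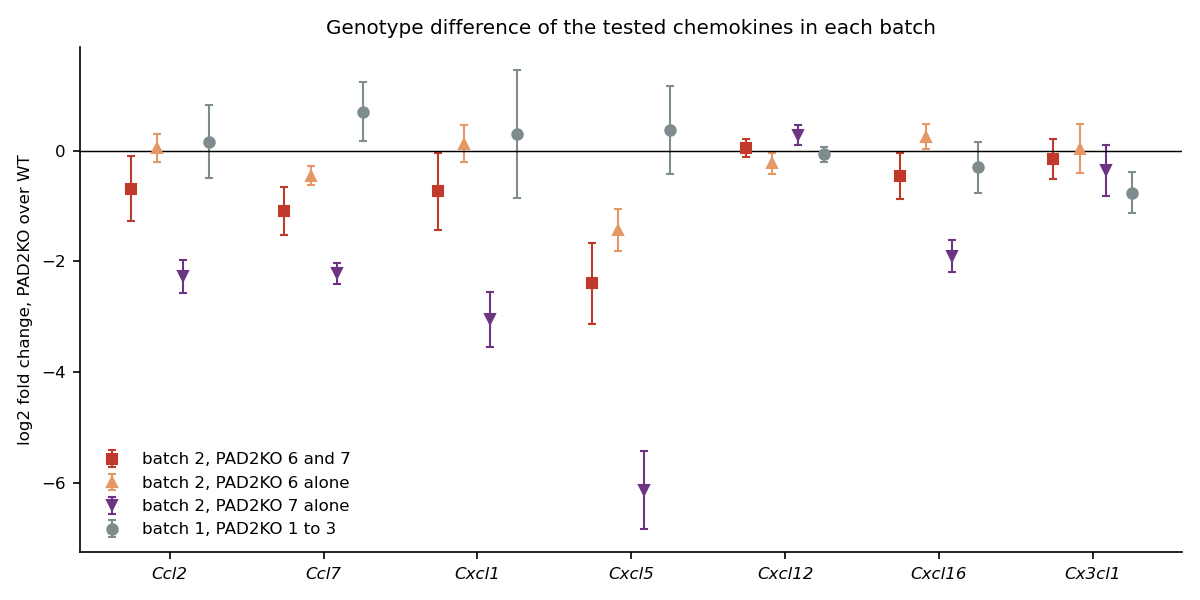
Points give the log2 fold change of PAD2KO over WT (vertical axis) of each tested chemokine, for batch 2 with both PAD2KO libraries, with PAD2KO 6 alone and with PAD2KO 7 alone, and for batch 1. Bars are ± 1 SE. Batch 1 and PAD2KO 6 alone lie near 0 for most genes, and PAD2KO 7 alone lies at -1.90 or lower for 5 of the 7.

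Other chemokine genes were scarce. Of 26 looked up, 25 were in the table, 18 had any count and 2 entered the test. Cxcl14, a chemokine of epithelia and fibroblasts, was higher in batch 2 in PAD2KO (log2 fold change 1.39 ± 0.37 SE, edgeR adjusted p = 0.0130) and in WT (1.73 ± 0.40 SE, adjusted p = 0.00353), and did not pass between genotypes. Cxcl2, the close relative of Cxcl1, had 7 counts in PAD2KO and 28 in WT of batch 2, summed over the libraries, against 2 in PAD2KO and 1 in WT of batch 1. Of 18 chemokine receptors, 12 had counts and 0 reached the test. Cxcr4, the receptor of Cxcl12, had 0 counts in all libraries together, which allows up to 3 counts over all of them. Cxcr2, the receptor of Cxcl1 and Cxcl5, had the most, with 20 counts in PAD2KO and 32 in WT of batch 2, against 8 in PAD2KO and 0 in WT of batch 1. Of 4 atypical receptors, which take up chemokines without classical signalling, 3 had counts and 0 were tested. Ackr3, the atypical receptor of Cxcl12, led them with 30 counts in all.

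Genes that act on chemokines after transcription were looked at next. Of 7 proteases that cut or release chemokines, 5 were tested and 0 differed between genotypes. Over all genes, 3.11% were called in batch 2 and 0.131% in batch 1, so a count of 0 among so few genes is near these shares. Adam10, which sheds Cxcl16 and Cx3cl1, was lower in batch 2 in WT (-0.89 ± 0.14 SE, edgeR adjusted p = 2.17e-05), and its value in PAD2KO was -0.39 ± 0.15 SE (adjusted p = 0.0819). All 8 syndecan and heparan sulfate genes were tested. Sdc1, a heparan sulfate proteoglycan that binds chemokines, had 183 CPM in PAD2KO 6 and 130 CPM in PAD2KO 7, against 255, 271 and 289 CPM in WT of batch 2. It was the 1 gene of the list lower in PAD2KO of batch 2 (-0.79 ± 0.14 SE, edgeR adjusted p = 0.00125), where 3.11% of all genes were called. Its batch 1 value was 0.16 ± 0.14 SE (adjusted p = 0.959). The change in this difference from batch to batch was also past the threshold (-0.95 ± 0.20 SE, adjusted p = 0.00815). Of 7 factors that govern chemokine mRNA decay, 0 differed between genotypes, which is again near the shares over all genes. Zc3h12a, an RNase that degrades inflammatory mRNAs, was higher in batch 2 in PAD2KO (1.51 ± 0.46 SE, adjusted p = 0.0198) and in WT (1.97 ± 0.37 SE, adjusted p = 0.000171). Zfp36l1 and Zfp36, which also promote decay, were lower in batch 2 in both genotypes, by 0.50 to 0.68 on the log2 scale.

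Of 14 genes for NF-kB subunits and their feedback inhibitors, 13 were tested. Batch 2 was above batch 1 for 4 in PAD2KO, where 9.52% of all genes were, and for 7 in WT, where 11.7% were. In neither were any lower, and the median log2 fold change was 0.23 in PAD2KO and 0.72 in WT. Nfkbia, which holds NF-kB in the cytoplasm, had 221 CPM in PAD2KO 6 and 104 CPM in PAD2KO 7, against 219, 273 and 285 CPM in WT of batch 2. Batch 1 had 84.3, 75.3 and 83.1 CPM in PAD2KO, against 63.9, 76.3 and 74.9 CPM in WT. Like Ccl2, it was high in PAD2KO 6 and in WT of batch 2 and much lower in PAD2KO 7. Tnfaip3, which dampens NF-kB signalling, was higher in batch 2 in PAD2KO (2.72 ± 0.47 SE, edgeR adjusted p = 0.000113) and in WT (2.66 ± 0.40 SE, adjusted p = 7.82e-06), and Nfkbiz likewise (0.94 ± 0.16 SE and 1.59 ± 0.15 SE). Between genotypes, 0 of the 13 passed in either batch, where 3.11% of all genes were called in batch 2 and 0.131% in batch 1. The median of the 13 was -0.41 in batch 2 and -0.03 in batch 1. With PAD2KO 7 alone, 3 were lower than in WT of batch 2 (3.68% of all genes were called), and with PAD2KO 6 alone 0 (0.646% of all genes).

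Of 14 interferon signalling genes, 13 were tested. In batch 2, 4 were lower and 1 higher in PAD2KO, where 3.11% of all genes were called (139 higher and 170 lower). In batch 1 there were 0, where 0.131% of all genes were called. Stat2, a transcription factor of the type I interferon response, had 24.6 CPM in PAD2KO 6 and 12.7 CPM in PAD2KO 7, against 62.0, 64.3 and 94.5 CPM in WT of batch 2. In batch 1 its levels were 34.5, 35.9 and 35.6 CPM in PAD2KO, against 30.0, 36.7 and 37.8 CPM in WT. Here PAD2KO 6 was low together with PAD2KO 7, whereas for Ccl2 and Cxcl1 it lay among or near the WT libraries. The log2 fold change of Stat2 was -1.96 ± 0.26 SE in batch 2 (edgeR adjusted p = 2.67e-05) and 0.02 ± 0.22 SE in batch 1 (adjusted p = 0.999), and the test of the difference between batches passed as well (-1.98 ± 0.35 SE, adjusted p = 0.00151). Irf9, its partner in the interferon complex, had -0.97 ± 0.19 SE in batch 2 (adjusted p = 0.00289) and 0.13 ± 0.18 SE in batch 1 (adjusted p = 0.981), with a difference of -1.09 ± 0.26 SE (adjusted p = 0.0251). With PAD2KO 6 alone, 2 of the 13 were lower in batch 2 (0.646% of all genes were called), and with PAD2KO 7 alone 4 (3.68% of all genes).

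Among 15 receptors for cytokines that induce chemokines, 14 were tested. Tnfrsf1b, the second TNF receptor, was lower in PAD2KO in both batches. It had 25.5 CPM in PAD2KO 6 and 22.2 CPM in PAD2KO 7, against 85.6, 85.0 and 122 CPM in WT of batch 2. The batch 1 values were 27.3, 26.0 and 37.1 CPM in PAD2KO, against 64.7, 61.2 and 68.4 CPM in WT. The log2 fold change was -2.01 ± 0.22 SE in batch 2 (edgeR adjusted p = 1.63e-06) and -1.10 ± 0.19 SE in batch 1 (adjusted p = 0.00584). No other gene of the list passed between genotypes, where 3.11% of all genes were called in batch 2 and 0.131% in batch 1. No chemokine passed beside Tnfrsf1b in either batch. Between batches, Il6st, the shared receptor of the interleukin-6 family, was lower in batch 2 in PAD2KO (-1.73 ± 0.12 SE) and in WT (-2.04 ± 0.10 SE). Il4ra, an interleukin-4 receptor, was higher in both (0.81 ± 0.13 SE in PAD2KO and 0.88 ± 0.12 SE in WT).

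**Figure D5:**
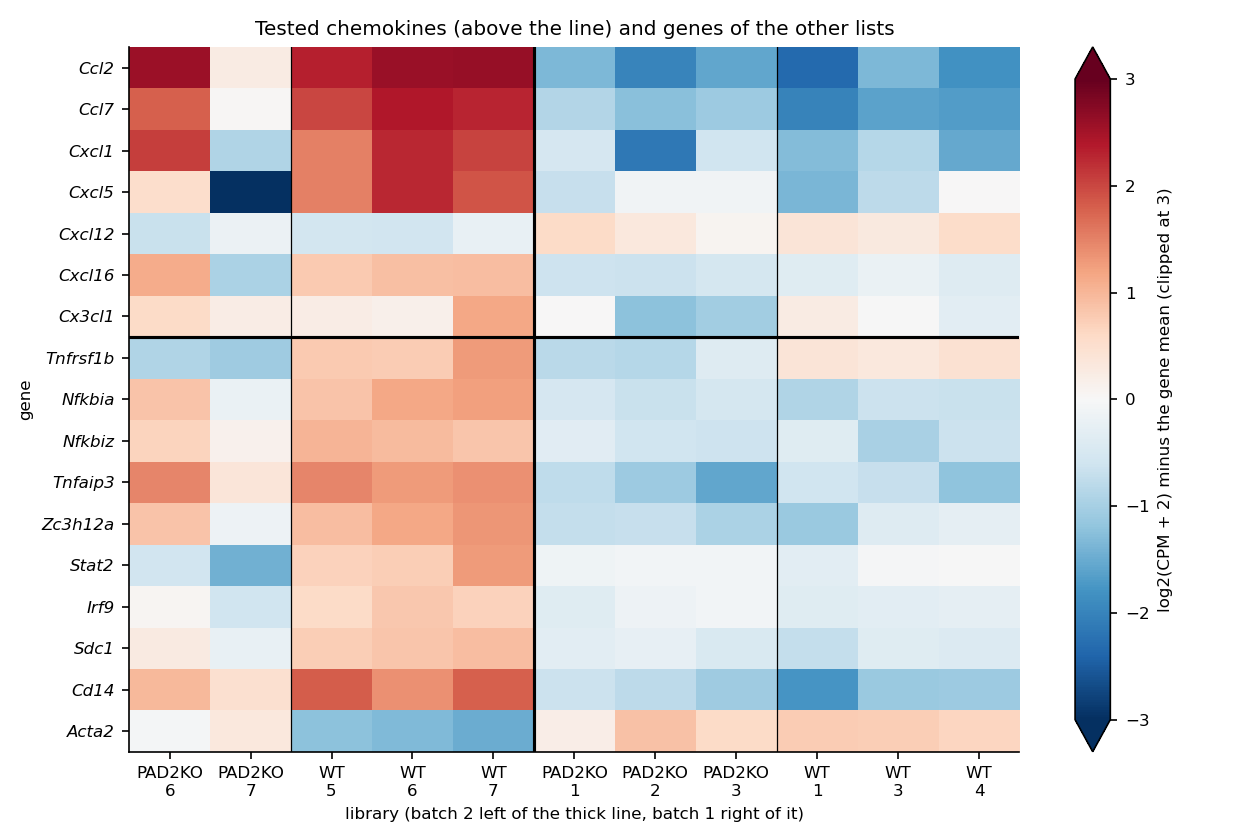
Rows are the 7 tested chemokines (above the horizontal line) and genes of the lists around them, columns are libraries (batch 2 left of the vertical line), and colour is log2(CPM + 2) minus the mean of the gene over the 11 libraries, limited to 3 in either direction. Ccl2, Ccl7, Cxcl1 and Nfkbia are high in PAD2KO 6 and in WT of batch 2, Stat2 is higher in WT of batch 2 than in every other library, and Cxcl5 is lowest in PAD2KO 7.

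Cell type markers were set beside these values. The 9 fibroblast markers summed to 10203 to 10962 CPM in PAD2KO and 11596 to 12417 CPM in WT of batch 2, against 16530 to 17703 CPM in PAD2KO and 17050 to 22544 CPM in WT of batch 1. Col3a1, a fibrillar collagen and itself part of this sum, was lower in batch 2, with log2 fold changes of -2.48 in PAD2KO and -2.19 in WT. Col1a1 and Col1a2 were lower as well (-0.98 and -0.85 in PAD2KO, -1.57 and -0.70 in WT). Not every marker of the list followed. Thy1 was at 0.88 in PAD2KO and 0.14 in WT. Vim had 1690 and 2212 CPM in PAD2KO and 1505 to 1873 CPM in WT of batch 2. In batch 1 Vim had 1331 to 1448.5 CPM in PAD2KO and 1323 to 1588 CPM in WT. The 7 pericyte and smooth muscle markers summed to 3653 to 4613 CPM in PAD2KO and 1390 to 1720 CPM in WT of batch 2. In batch 1 they summed to 4632 to 7106 CPM in PAD2KO and 6124 to 6687 CPM in WT. Most of this sum was Acta2, whose log2 fold change of PAD2KO over WT was 1.49 in batch 2 (edgeR adjusted p = 1.86e-05) and -0.13 in batch 1 (adjusted p = 0.971). Rgs5 of the same list went the other way at few counts, with 1.59 and 1.64 CPM in PAD2KO and 7.15 to 12.9 CPM in WT of batch 2. Cd14, a receptor of macrophages that activated fibroblasts also carry, had 43.5 CPM in PAD2KO 6 and 30.2 CPM in PAD2KO 7, against 79.7, 58.0 and 78.4 CPM in WT of batch 2, and 8.91 to 12.8 CPM in PAD2KO against 4.73 to 8.85 CPM in WT of batch 1. The 5 mesothelial markers summed to 50.1 to 91.1 CPM in PAD2KO and 52.6 to 90.8 CPM in WT of batch 2, against 90.8 to 255 CPM in PAD2KO and 200.4 to 348 CPM in WT of batch 1. Upk3b and Lrrn4 were lower in batch 2 in WT (log2 fold changes -3.74 and -3.21), but Krt19 was not, with 7.94 to 11.1 CPM against 0.805 to 7.20 CPM. Msln, at few counts, had 9.03 and 6.36 CPM in PAD2KO and 0 to 0.794 CPM in WT of batch 2 (log2 fold change 3.55, edgeR adjusted p = 0.0155). Between batches in PAD2KO, Msln was at 0.13. Ptprc, found on all leukocytes, stayed at 0 to 2.97 CPM in every library. Other genes of the leukocyte list were less even. Adgre1 had 14.0 CPM in PAD2KO 6 and 0.795 CPM in PAD2KO 7, against 0, 3.18 and 45.1 CPM in WT 5, 6 and 7. In batch 1 Adgre1 had 0 to 1.61 CPM. Tyrobp and C1qa were highest in WT 7, at 6.44 and 7.52 CPM. The part of these markers in the chemokine values was not tested.

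The genes nearest to each chemokine were found by the root mean square difference of log2 CPM, centred on each gene, over the 11 libraries. Ccl2 was nearest to Ccl7 (0.43) and to Lif (0.44), a cytokine of the interleukin-6 family. Lif had 106 CPM in PAD2KO 6 and 38.1 CPM in PAD2KO 7, against 103, 110.4 and 141 CPM in WT of batch 2, and 5.63 to 8.16 CPM in PAD2KO against 7.89 to 12.2 CPM in WT of batch 1. Ccl7 was nearest to Odc1 (0.42), the first enzyme of polyamine synthesis, and Cxcl1 to Ccl7 (0.58) and Steap4 (0.60), a metalloreductase. Cxcl5 was not nearest to another chemokine but to the interferon-induced genes Gbp3 (0.50) and Ifitm1 (0.57). Gbp3 had 27.9 CPM in PAD2KO 6 and 3.97 CPM in PAD2KO 7, against 68.7, 90.5 and 103 CPM in WT of batch 2, and 10.4 to 18.3 CPM in PAD2KO against 15.0 to 25.0 CPM in WT of batch 1. Like Cxcl5, it was lower in PAD2KO 6 than in every WT library of batch 2 and lower still in PAD2KO 7. Cxcl12 lay closest to Hspb1 and Gstm2 (both 0.13), and Cx3cl1 to Rps6ka2 and Ccnd1 (both 0.33). Between Ccl2 and Cxcl12 the difference was 2.42, the largest among the 7. These distances describe the libraries, which share batch and depth.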

How the data were processed

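Bulk RNA-seq libraries of sorted mouse neonatal lung fibroblasts were read from a single table that the authors deposited. It gives each library's estimated counts, TPM and effective gene lengths, per the file headers. The deposited TPM values are scaled to length and library total, and the deposited estimated counts are not scaled. The submitters' processing notes name build GRCm39 and the tools Salmon 1.3.2, fastp and DESeq2 1.46.0; their roles, and whether counting used strand, are not given in the sources used here. Per the labels' protocols, RNA came from a column kit and libraries from a SMARTer kit, which marks no molecules, so copies of a molecule count separately. Estimated counts split reads between similar genes by a model, which can affect close relatives such as Ccl2 and Ccl7.

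Of 56065 entries, 23133 without a symbol (3.80% to 6.40% of counts) were left out. The others were summed to 32868 symbols and rounded to whole numbers. The test was the quasi-likelihood test of edgeR 4.0.16, run under R 4.3.3 (TMM, filterByExpr on genotype, robust fit, 1 term for each of the 4 groups, 9932 genes, Benjamini-Hochberg adjustment over all of them, threshold 0.05). The common biological coefficient of variation was 0.115 with 7 residual degrees of freedom. CPM are counts over the TMM-scaled library size. Members under the filter were compared by an exact permutation test over 200 splits within batches, in Python 3.11.15 (SciPy 1.17.1, NumPy 2.4.6). Alternatives were DESeq2 1.42.0, RLE factors, no filter, length offsets, a replicate block, each batch alone and leaving out each library. Tests were checked on simulated counts. WT 5 and WT 6 were the most alike pair (chi-square per degree of freedom 1.51, other pairs 2.10 to 3.18) and were kept as separate libraries. Named genes are the 10 members, Padi2, up to 4 genes past the threshold from each list, and the 2 genes nearest to each tested member; genes named for their counts were chosen after their values were seen. The 10 members and all gene lists were chosen with earlier results of these data known. Promoters came from RefSeq for GRCm38.p6, another build than the table's. Some genes that the naming rule selects are not reported here.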

Additional observations from a re-analysis of the deposited data

How the results depend on the processing

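Leaving out each library in turn, chemokines called numbered 0 to 5 for PAD2KO against WT in batch 2 and for its difference between batches, 3 to 6 for batch 2 against batch 1 in WT and 2 to 5 in PAD2KO, and 0 in batch 1. Genes called then numbered 65 to 371 in batch 2, 5 to 20 in batch 1, 33 to 233 for the difference between batches, 1079 to 1947 between batches in PAD2KO and 1708 to 2303 in WT. Without the low-count filter they numbered 529, 58 and 323 for batch 2, batch 1 and the difference between batches. All 10 chemokines were then tested, and 8 were called between batches in WT, where 2385 of 20570 genes were. Of the 3 scarce chemokines, 0 passed between genotypes at an edgeR adjusted p within a batch. By permutation 1 of them, Ccl5, was under an unadjusted 0.05 over both batches, which is an unlike threshold. Length offsets gave 89, 2 and 26 genes, and 865 between batches in PAD2KO and 1356 in WT. DESeq2 called 1219 between batches in PAD2KO, and batch 1 fitted alone 22. The cause of these changes was not tested. Title numbers did not pair the libraries: deviations of same-numbered libraries correlated at 0.00152 to 0.0487. With the replicate block, genes called numbered 261 in batch 2, 8 in batch 1 and 112 for the difference between batches, and chemokines 0 in each.

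Of 560 chemokine values under an alternative, 503 kept direction and side of the threshold, 19 reversed, 18 lost the call and 20 gained it. Under the block, Cxcl12 reversed to -0.024 in batch 2, 0.0016 in batch 1 and -0.026 for their difference, and under length offsets the difference for Cxcl16 reversed to 0.23. Without single libraries, log2 fold changes of PAD2KO over WT in batch 2 ranged over -2.27 to 0.054 for Ccl2, -3.05 to 0.12 for Cxcl1, -0.23 to 0.28 for Cxcl12, -1.90 to 0.25 for Cxcl16 and -0.36 to 0.23 for Cx3cl1. In batch 1 they ranged over -0.053 to 0.45 for Ccl2, -0.0033 to 0.75 for Cxcl1 and -0.20 to 0.048 for Cxcl12. The difference between batches ranged over -0.17 to 0.34 for Cxcl12 and -1.60 to 0.55 for Cxcl16, and batch 2 over batch 1 in PAD2KO over -3.85 to 0.82 for Cxcl5 and -0.37 to 1.78 for Cxcl16. Batch 2 holds 2 PAD2KO libraries that lie far apart in most chemokines, and genes under about 3 counts in a library cannot be told from 0 at this depth.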
